A study of Mus musculus with 3 samples.

Results

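MiR-143, miR-145a, miR-199a, miR-199b and miR-214 were examined in 3 small RNA libraries of mouse liver. Every row of the count files named for 1 of these microRNAs was taken, with both arms, which gave 10 of the 1908 mature microRNAs listed. All 10 had reads in every library. The livers came from male C57BL/6J mice aged 8 to 10 weeks, with no transgene or drug named, in 3 groups of 6 mice that were fasted and operated under chloral hydrate. Sham mice had a laparotomy without occlusion, and their livers were taken after 1.5 h. In warm ischemia (WI) mice, the vessels and the bile duct to the left and median lobes were clamped for 1.5 h. Mice of the ischemia-reperfusion (IR) group had the same clamping for 1.5 h and then 2 h of restored flow. Each group was represented by 1 library, and whether it pooled several mice was not stated. No difference below has a replicate check, and each test compares 2 libraries and not 2 conditions. IR livers were also taken later after surgery than Sham and WI livers, so reperfusion and time since surgery cannot be told apart.

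A microRNA hairpin is cut into a pair of strands, the 5p arm and the 3p arm, and the strand loaded into an Argonaute protein represses messenger RNAs that pair with its seed. MiR-143 and miR-145 are made from neighbouring hairpins and are best known from smooth muscle, where they help to keep the contractile state. MiR-199a and miR-214 are made in part from Dnm3os, a non-coding RNA transcribed antisense within Dnm3, and are known from fibroblasts and from hepatic stellate cells, the collagen-producing cells of the liver. The libraries were made from whole tissue, so the cells that gave the reads were not measured, and fewer cells of a type and less RNA per cell cannot be told apart.

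The mature sequences are shown first because the names and the seeds decide how the reads can be separated. The set of RefSeq (GRCm38.p6) sequences used here held an entry for 5 of the 10 members. It held none for miR-143-5p, miR-143-3p, miR-145a-5p, miR-145a-3p and miR-199b-5p. This does not show that RefSeq lacks them. Capitals mark the seed, bases 2 to 8 from the 5′ end.
miR-199a-5p: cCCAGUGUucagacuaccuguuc
miR-199a-3p: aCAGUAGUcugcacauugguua
miR-199b-3p: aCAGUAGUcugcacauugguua
miR-214-5p: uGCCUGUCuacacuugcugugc
miR-214-3p: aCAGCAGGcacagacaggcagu
miR-761: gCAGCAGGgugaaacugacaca
MiR-199a-3p and miR-199b-3p are the same molecule under a pair of names. MiR-214-3p shared its seed with miR-761, a microRNA outside the group, which was listed at 0 reads in all 3 libraries. A count of 0 allows up to 3 reads, which is a level of 0.758, 0.617 and 0.785 normalised reads per 1000000 (CPM) for Sham, WI and IR.

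The hairpins are shown next, with the arms that have an entry in capitals, since the arms are compared below. Positions are in mm9, where each RefSeq hairpin had 1 exact match on chromosomes 1, 2 and 9, the only ones searched. Mir199a-1 lies at chr9:21300939-21301008 on the minus strand, antisense within an intron of Dnm2. Mir199a-2 lies at chr1:164147945-164148054 and Mir214 at chr1:164153499-164153608, both on the plus strand in exons of Dnm3os and antisense within introns of Dnm3, with 5444 bases between them. Mir199b lies at chr2:32173980-32174089 on the plus strand, antisense within an intron of Dnm1.
Mir199a-1: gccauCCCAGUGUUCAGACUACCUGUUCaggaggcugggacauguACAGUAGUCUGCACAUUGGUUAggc
Mir199a-2: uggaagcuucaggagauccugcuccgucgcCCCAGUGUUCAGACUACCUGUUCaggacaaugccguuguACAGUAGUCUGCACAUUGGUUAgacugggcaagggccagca
Mir199b: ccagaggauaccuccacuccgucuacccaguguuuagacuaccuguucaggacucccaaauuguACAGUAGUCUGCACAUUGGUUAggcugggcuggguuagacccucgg
Mir214: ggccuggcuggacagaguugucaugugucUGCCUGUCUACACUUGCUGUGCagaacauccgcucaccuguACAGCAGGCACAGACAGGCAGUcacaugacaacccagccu
The sequence of the miR-199 3p arm was found in 3 hairpins, whereas that of miR-199a-5p was found in Mir199a-1 and Mir199a-2 only.

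The identical arms were compared before any level was read. The row of miR-199a-3p held 2712, 3385 and 2372 reads, given here and below for Sham, WI and IR in that order. MiR-199b-3p had 1339, 1667 and 1170 reads in the same order. The first name therefore held 2.03 times the reads of the second in each of the 3 libraries, and RefSeq lists 2 hairpins for the first name and 1 for the second. Among microRNAs with at least 50 reads, 1 other identical pair was found, let-7a-1-3p and let-7c-2-3p, with 1 hairpin each, and their reads were equal in Sham (155) and IR (131) and differed by a single read in WI (248 and 247). Hence the rows of miR-199a-3p and miR-199b-3p are not independent measurements, and neither gives the output of its own hairpin. The 5p arms, whose sequences in the hairpins above are close but not the same, had rows that differed widely. MiR-199a-5p had 851, 963 and 829 reads and miR-199b-5p 11, 22 and 15 in Sham, WI and IR. Whether some reads of miR-199a-5p were counted as miR-199b-5p was not tested.

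MiR-143 and miR-145a lie close together on the minus strand of chromosome 18 in mm9, at 61808850 to 61808912 and 61807470 to 61807557. They overlap no other gene of the GENCODE annotation, 1292 bases separate them, and the nearest gene is the long non-coding RNA Gm16908.

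The libraries held between 3784539 (IR) and 5064014 (WI) microRNA reads, with 3844133 in Sham. Scaling used trimmed means of M-values (TMM), and levels are given as CPM, with 95% Poisson intervals that cover counting error only. The microRNAs listed for hepatocytes, miR-122, miR-192-5p and miR-194-5p, were present and together reached 259963 to 285072 CPM. Most of this sum was miR-192-5p, with 243175, 258042 and 236770 CPM in Sham, WI and IR. MiR-122-5p had 15960, 18999 and 15364 CPM in the same order, which was below miR-143-3p in each library. Of 7 microRNAs listed for striated muscle, miR-208a-3p had no reads and only miR-133a-3p reached 10 reads over the libraries.

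Of all microRNA reads, the 10 members took 4.15% (Sham, 95% Wilson interval from 4.13 to 4.17), 4.20% (WI, from 4.18 to 4.21) and 3.61% (IR, from 3.59 to 3.63). Almost all of these were miR-143-3p, which made up 95.9%, 96.2% and 95.8% of the members' reads. With 152845, 204396 and 130840 reads, miR-143-3p was the 5th most abundant microRNA in Sham and WI and the 7th in IR. Its level was 38597, 42013 and 34215 CPM. The lowest member was miR-199b-5p with 2.78, 4.52 and 3.92 CPM.

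The order of the levels was nearly the same in the 3 libraries. After miR-143-3p came miR-199a-3p with 685, 696 and 620 CPM in Sham, WI and IR, and miR-199b-3p with 338, 343 and 306. MiR-145a-3p followed in Sham and WI and miR-199a-5p in IR. In Sham the intervals of those neighbours overlapped, with 238 CPM (223 to 254) for miR-145a-3p and 215 (201 to 230) for miR-199a-5p. MiR-145a-5p was next, with 133, 130 and 126 CPM. MiR-214-3p had 40.2, 34.7 and 46.5 CPM, and miR-214-5p had 11.1, 9.87 and 10.2. MiR-143-5p had 19, 32 and 18 reads and miR-199b-5p 11, 22 and 15, and their intervals overlapped in every library. Read levels of different microRNAs were not calibrated against each other.

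**Figure D1:**
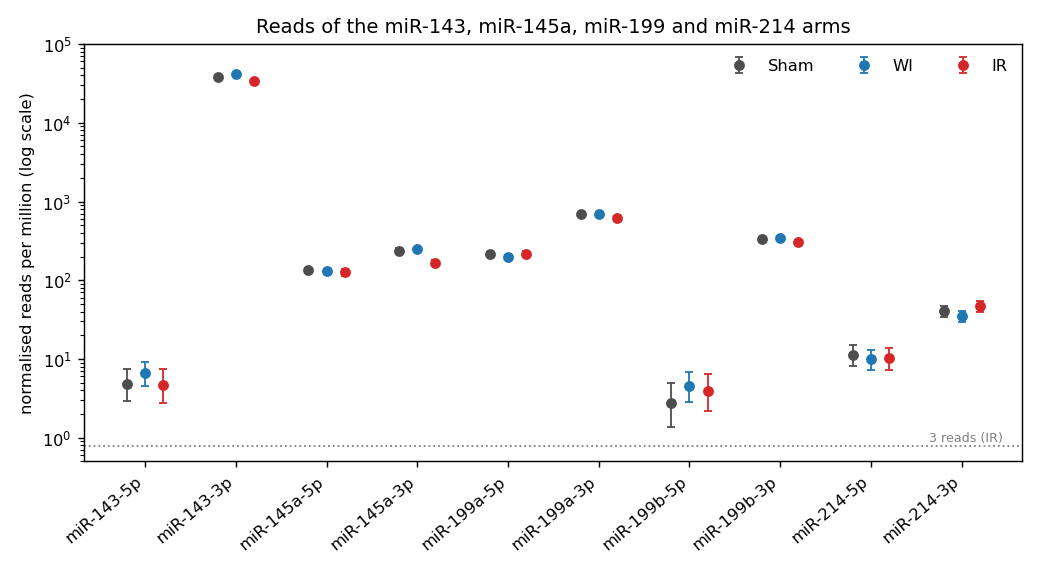
Normalised reads (CPM, log axis) of the 10 arms in the Sham, WI and IR libraries, 1 point per library, with 95% Poisson intervals of the read counts. MiR-143-3p lies between 34215 and 42013 and the next arm, miR-199a-3p, between 620 and 696, while miR-143-5p and miR-199b-5p lie nearest the dotted line, the level of 3 reads in IR (0.785).

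Comparisons were then made for each pair of libraries to find differentially expressed (DE) microRNAs, which needed a fold of more than 1.5 together with a Fisher's exact p under 0.01 before adjustment. None of the 10 members was called in any of the 3 comparisons. Of all microRNAs tested, 1.92% of 782 were called in WI against Sham, 7.11% of 774 when IR was set against Sham and 9.25% of 789 when it was set against WI. Only miR-199b-5p in WI against Sham went past a fold of 1.5, and it did not pass the p threshold (Fisher's exact p = 0.221). Smaller shifts did pass p under 0.01 without the fold, in 1 member for WI against Sham, 5 for IR against WI and 3 for IR against Sham. The same held for 12.3%, 18.9% and 16.0% of all microRNAs tested. The 5 include miR-199a-3p and miR-199b-3p, so they are 4 different sequences. Fisher's test holds no variation between animals. With edgeR's exact test at an assumed coefficient of variation of 0.1, the numbers were 0, 1 (miR-145a-3p) and 0, and at 0.2 or 0.4 they were 0 in all 3 comparisons. The share of all microRNAs passing edgeR's test is not given here, so these numbers cannot be set against it.

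Ischemia alone was compared first. MiR-143-3p was higher in WI than in Sham by 0.12 on the log2 scale (SE 0.0049), a fold of 1.09, with p under 0.01 and well below the fold threshold. This value ranged from 0.02 with library totals to 0.28 with genome-aligned totals. MiR-145a-3p had 944 reads in Sham and 1198 in WI, or 238 and 246 CPM, and its log2 fold change was 0.05 (95% interval -0.08 to 0.17). MiR-145a-5p had 527 and 634 reads and a log2 fold change of -0.03 (-0.20 to 0.14). MiR-143-5p, with 19 and 32 reads, had a log2 fold change of 0.45 (-0.37 to 1.27). The intervals of these 3 arms include 0, and that of miR-143-5p is wide.

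With TMM scaling, the miR-199 and miR-214 arms also lay within counting error between Sham and WI. The log2 fold change was 0.02 for miR-199a-3p (-0.05 to 0.10) and -0.12 for miR-199a-5p (-0.25 to 0.01). MiR-214-3p had 159 reads in Sham and 169 in WI, a log2 fold change of -0.21 (-0.52 to 0.10). MiR-214-5p had 44 and 48 reads, a log2 fold change of -0.17 (-0.76 to 0.42). Only miR-199b-5p went past a fold of 1.5, from 11 to 22 reads, and this did not pass the test (log2 fold change 0.68, SE 0.53, Fisher's exact p = 0.221). The median log2 fold change of the 10 members was 0.02, against 0.04 for the 449 microRNAs with at least 10 reads over the 3 libraries.

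Reperfusion was then compared with ischemia. MiR-145a-3p was the member with the largest shift, from 246 CPM in WI to 167 in IR. It had 1198 reads in WI against 638 in IR, with a log2 difference of -0.56 (SE 0.07, Fisher's exact p = 7.41e-16). The fold of 1.48 lay just under the threshold, and its 95% interval of -0.70 to -0.42 on the log2 scale spans the threshold. MiR-145a-5p, from the same hairpin, had 634 and 480 reads, or 130 and 126 CPM, and a log2 fold change of -0.05 (-0.23 to 0.12). MiR-143-3p was lower in IR by 0.30 on the log2 scale (SE 0.0051), a fold of 1.23. MiR-143-5p had 32 and 18 reads and a log2 fold change of -0.47 (-1.31 to 0.36).

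In the miR-199 and miR-214 group, the arms went different ways between WI and IR. The 3p arm of miR-199 was lower in IR, with a log2 fold change of -0.17 under the name miR-199a-3p (SE 0.04, Fisher's exact p = 1.78e-05) and -0.16 under the name miR-199b-3p (SE 0.06). MiR-199a-5p was not lower, with 198 CPM in WI and 217 in IR and a log2 fold change of 0.13 (95% interval -0.0029 to 0.27). MiR-214-3p was higher in IR, with 169 reads in WI and 178 in IR and a log2 fold change of 0.42 (SE 0.15, Fisher's exact p = 0.0068), a fold of 1.34. MiR-214-5p differed by 0.05 (-0.56 to 0.66). The median of the 10 members was -0.16, against -0.03 for the 449 microRNAs.

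Between IR and Sham, 3 members passed p under 0.01 and all were lower in IR. MiR-145a-3p had 238 CPM in Sham and 167 in IR, with a log2 fold change of -0.51 (SE 0.07, Fisher's exact p = 2.40e-12) and a fold of 1.43. MiR-143-3p had a log2 fold change of -0.17 (SE 0.0054) and miR-199a-3p one of -0.14 (SE 0.04, Fisher's exact p = 0.000428). The same sequence under the name miR-199b-3p, with fewer reads, had -0.14 (SE 0.06) and did not pass (Fisher's exact p = 0.0125). MiR-145a-5p (-0.08, 95% interval -0.26 to 0.09), miR-199a-5p (0.01, -0.13 to 0.15) and miR-214-3p (0.21, -0.10 to 0.52) did not differ beyond counting error. The rare arms miR-143-5p, miR-199b-5p and miR-214-5p had fewer than 50 reads in each library, and their intervals reached past a fold of 1.5 in both directions or in one. The median of the 10 members was -0.10, against 0.02 for the 449 microRNAs. The comparisons with IR share the IR library, so their values are not independent of each other.

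**Figure D2:**
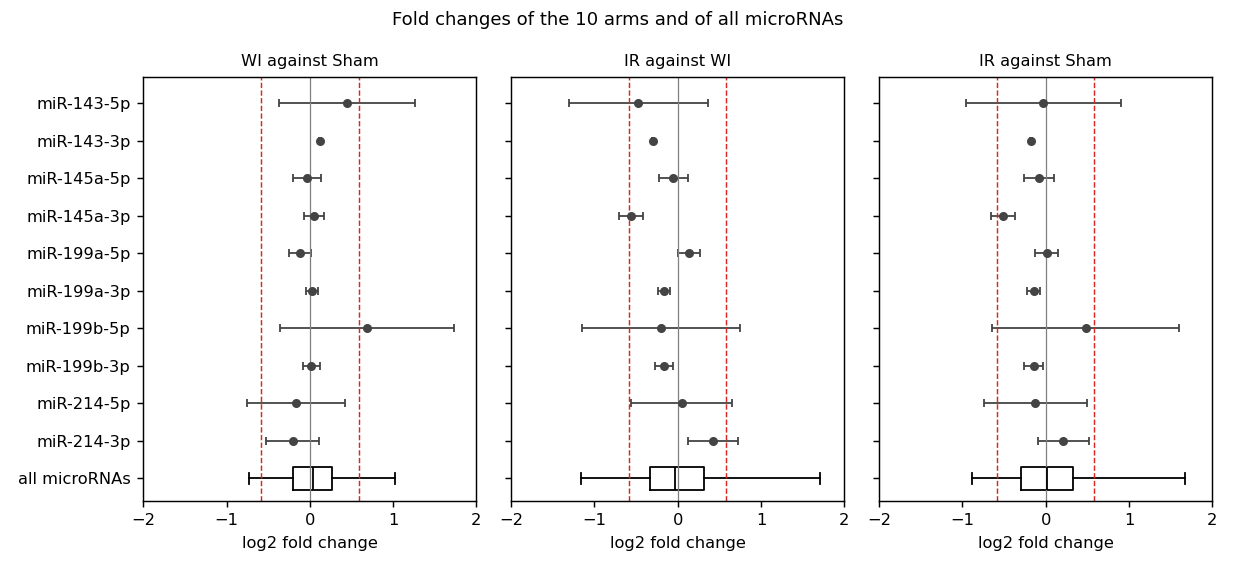
Log2 fold changes of the 10 arms in each comparison, with 95% intervals from the read counts, above a box of the 449 microRNAs with at least 10 reads (line at the median, box from the 25th to the 75th percentile, whiskers from the 5th to the 95th). Dashed lines mark a fold of 1.5, and miR-145a-3p in IR against WI (-0.56) lies just inside them.

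The values depended on the scaling. With the totals of reads aligned to the genome in place of TMM, the median of the 449 microRNAs moved to -0.35 in IR against WI, -0.15 in IR against Sham and 0.19 in WI against Sham. MiR-143-3p (-0.62) and miR-145a-3p (-0.89) were then called lower in IR against WI, and miR-145a-3p (-0.68) in IR against Sham. Of all microRNAs tested, this scaling called 14.1% of 789 in IR against WI, 73 of the 111 lower, and 8.14% of 774 in IR against Sham. MiR-145a-3p lay below the median of the microRNAs with either scaling, since the same scaling moved the median. MiR-199a-5p changed direction to -0.19 in IR against WI. The difference of miR-214-3p in IR against WI shrank to 0.10 and did not pass the test (Fisher's exact p = 0.555). These arms moved with the median. Relative to it, miR-143-3p in IR against WI was -0.26 with TMM and -0.27 with genome-aligned totals. MiR-199a-5p was 0.16 above the median and miR-214-3p 0.45 above it with either scaling. With library totals, miR-199a-3p in IR against WI was -0.09 and no longer passed p under 0.01 (Fisher's exact p = 0.0165). The other 3 scalings called no member.

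**Figure D3:**
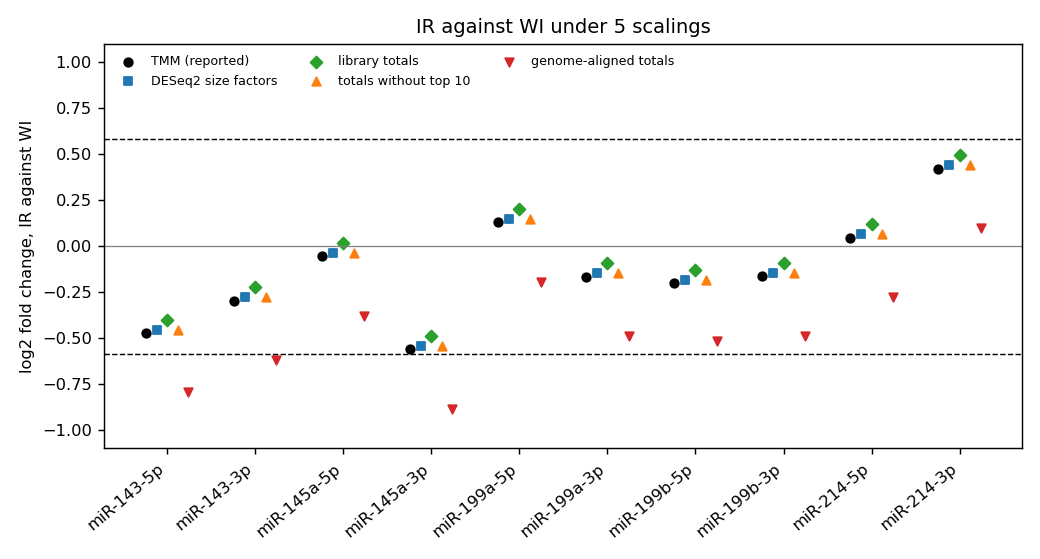
Log2 fold change in IR against WI of the 10 arms under 5 scalings, 1 point each, with dashed lines at a fold of 1.5. The points for totals of genome-aligned reads lie lowest for every arm, and miR-143-3p (-0.62) and miR-145a-3p (-0.89) cross the lower line with them. MiR-143-5p also crosses it, with 32 and 18 reads, and did not pass the p threshold.

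The share of the 5p arm among the reads of both arms was examined next, because it is taken within a library and needs no scaling. Hairpin names were tested if the reads of both arms in the 2 libraries summed to at least 10, with reads for each arm and in each library. Fisher's exact test was used, with Benjamini-Hochberg adjustment over all names in a comparison. For miR-145a the 5p share was 35.8% with a 95% Wilson interval of 33.4 to 38.3 in Sham. It was 34.6% (32.5 to 36.8) for WI and 42.9% (40.1 to 45.9) for IR, whose interval lay above both others. The share was 7.11 percentage points higher in IR than in Sham (Fisher's exact test, adjusted p = 0.00596) and 8.33 points higher than in WI (adjusted p = 0.000151). Sham and WI differed by 1.22 points (Fisher's exact p = 0.486). In reads, the 3p arm outnumbered the 5p arm by 1.79 to 1 in Sham, 1.89 to 1 in WI and 1.33 to 1 in IR.

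MiR-199a showed a smaller shift of the same direction between WI and IR. Its 5p arm held 23.9% (22.5 to 25.3) in Sham, 22.1% (20.9 to 23.4) in WI and 25.9% (24.4 to 27.4) in IR. The difference of 3.75 percentage points between IR and WI passed the test (Fisher's exact test, adjusted p = 0.00317), and the 2.01 points between IR and Sham did not (adjusted p = 0.379). The reads under this name can come from either of its hairpins, and those of the 3p arm from Mir199b as well, so this share is not that of 1 hairpin.

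MiR-214 gave 21.7% (16.6 to 27.8), 22.1% (17.1 to 28.1) and 18.0% (13.4 to 23.6) from its 5p arm, and its intervals overlapped in all pairs. MiR-143 was almost wholly a 3p microRNA, with 0.0124%, 0.0157% and 0.0138% of reads from the 5p arm. MiR-199b had 0.815%, 1.30% and 1.27%, against a 3p row that it shares in sequence with miR-199a. Neither miR-143 nor miR-199b nor miR-214 was called in any comparison.

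Of 5 member hairpin names, 2 were called between IR and WI, 1 between IR and Sham and 0 between WI and Sham. Among all hairpin names tested, 5.88% of 170 were called in WI against Sham, 5.39% of 167 for IR against Sham and 7.22% of 180 for IR against WI. By the size of the difference, miR-145a ranked 27th of 167 in IR against Sham and 34th of 180 in IR against WI. The test leaves out variation of the arm share between animals, which was not measured. An unequal change of the arms does not show which arm changed.

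**Figure D4:**
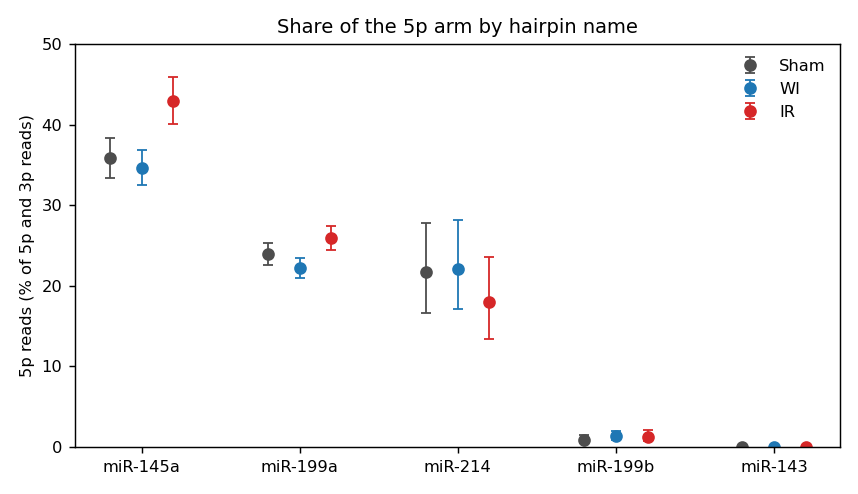
Share of 5p reads among the reads of both arms (percent) for each hairpin name in the Sham, WI and IR libraries, with 95% Wilson intervals. MiR-145a is at 42.9% in IR, above 35.8% in Sham and 34.6% in WI, while the 3 intervals of miR-214 overlap.

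MicroRNAs made from neighbouring hairpins were then set against each other within each library, in 6 tests with unadjusted p-values. MiR-143-3p had 162, 171 and 205 reads for each read of miR-145a-3p. The ratio was higher in IR than in Sham by 0.34 on the log2 scale (SE 0.07, Fisher's exact p = 4.08e-06) and higher than in WI by 0.27 (SE 0.07, Fisher's exact p = 0.000165). With the other arm of the same hairpin the direction turned. MiR-143-3p had 290, 322 and 273 reads for each read of miR-145a-5p, a log2 change of -0.09 (SE 0.09) from Sham to IR and of -0.24 (SE 0.09, Fisher's exact p = 0.00617) from WI to IR. The balance between the neighbours therefore depended on which arm of miR-145a was counted.

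MiR-199a-3p had 17.1, 20.0 and 13.3 reads for each read of miR-214-3p. From WI to IR the log2 change of this ratio was -0.59 (SE 0.16, Fisher's exact p = 0.000261), and the change from Sham to IR was -0.36 (SE 0.16, Fisher's exact p = 0.0321). With miR-199a-5p in place of miR-199a-3p the ratio was 5.35, 5.70 and 4.66, and the log2 change from WI to IR was -0.29 (SE 0.17, Fisher's exact p = 0.0886). The 3p reads of miR-199a can also come from Mir199a-1 and Mir199b, which are not neighbours of Mir214.

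The members were set beside 7 lists of microRNAs known from the cells a liver sample can hold. Of 7 other mesenchymal microRNAs, all had at least 10 reads, and their summed level was 4769, 4155 and 4444 CPM. MiR-10b-5p was called higher in both WI and IR relative to Sham, and miR-218-5p, with 4, 15 and 1 reads, was called lower in IR against WI. The median log2 fold change of this list in IR against Sham was -0.17. It was -0.07 for the 2 endothelial miR-126a arms, -0.22 for 5 leukocyte microRNAs, -0.05 for 4 hepatocyte microRNAs and 0.01 for 6 biliary epithelial microRNAs, beside -0.10 for the 10 members. MiR-223-3p of the leukocyte list was called higher in IR against both other libraries, and of the biliary list miR-200c-3p was called higher and miR-375-3p lower in IR against WI.

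The highest medians in IR against Sham were those of the erythroid list (0.73) and the striated muscle list (3.41, from 1 microRNA). All 4 erythroid microRNAs (miR-451a, miR-144-3p, miR-144-5p and miR-486-5p) were called higher in IR against Sham, with a summed level of 5055, 4781 and 9020 CPM. The striated muscle list summed to 6.82, 25.1 and 76.6 CPM, nearly all of it miR-133a-3p with 27, 115 and 280 reads, which was called higher in all 3 comparisons. The part of either list in the members' values was not tested.

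**Figure D5:**
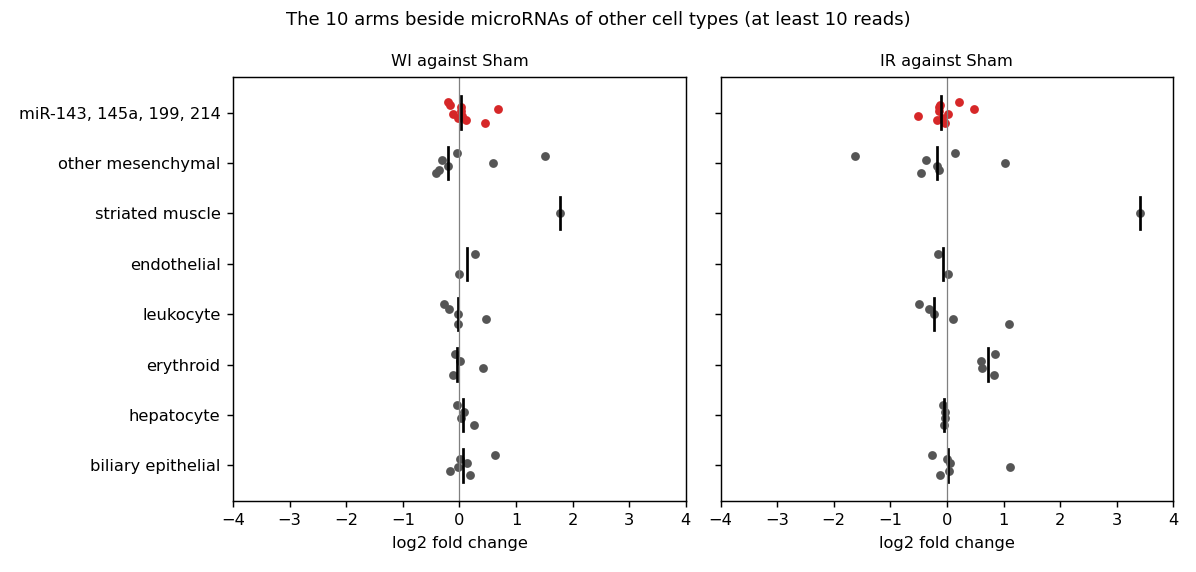
Log2 fold changes in WI and in IR against Sham of the 10 arms (red) and of microRNAs listed for other cells (grey), each with at least 10 reads over the 3 libraries, with a bar at the median of each list. The 10 arms lie between -0.51 and 0.48 in IR against Sham, below all 4 erythroid microRNAs and the 1 striated muscle microRNA.

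Finally, the microRNAs with the most similar course were sought among 271 others with at least 100 reads, by the distance between their pairs of log2 fold changes in WI and IR against Sham. The summed miR-143 and miR-145a arms had values of 0.12 and -0.18. The nearest were miR-423-5p (0.17 and -0.17), let-7g-5p (0.15 and -0.25) and miR-200a-3p (0.18 and -0.12). Of the 154335 summed reads in Sham, 152845 were miR-143-3p, so this course is that of miR-143-3p. MiR-145a-3p alone had 0.05 and -0.51. The summed miR-199 and miR-214 arms had values of -0.01 and -0.10, and the nearest were miR-29a-3p (-0.01 and -0.11), miR-874-3p (-0.02 and -0.09) and miR-130a-3p (-0.03 and -0.11). Likeness over 3 libraries is a description only, and many microRNAs lie close to these values.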

How the data were processed

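For every mature microRNA the authors deposited raw read counts. They trimmed adaptors, selected reads by quality and length, aligned them with Bowtie 0.12.7, assigned alignments to RNA types with HTSeq and obtained mature microRNA counts with miRDeep2. The methods of the study name mm9 and the labels list mm10. The counts carry names and no coordinates, and positions here are those of mm9. No molecular identifiers were used, so intervals and floors (3 reads) cover counting error only.

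Groups were taken from the sample titles. TMM factors (1.03 for Sham, 0.961 for WI and 1.01 for IR) were computed with edgeR 4.0.16 under R 4.3.3. Fold changes were taken on log2(CPM + 0.1), which understates changes of rare microRNAs, with SE from the read counts. Fisher's exact test (two-sided, scipy 1.17.1) compared reads and scaled totals for microRNAs detected in 1 library or both, at the fold and p criteria of the study. The scaling was not that of the study, which gives its total as the mapped reads of a sample, whereas totals of microRNA reads were scaled here. Without replicates, edgeR's quasi-likelihood model could not be used. The calls and the arm test were tested on simulated data.

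The members and lists were chosen with earlier results of these data known. All members are named, as are the 3 nearest patterns for each cluster and called microRNAs of the lists. Named after their values were seen are miR-761, the identical let-7 pair, miR-208a-3p and miR-145b. Of the listed microRNAs, 1603 of 1908 matched an entry in the set of RefSeq sequences used here. Alternatives changed the scaling (DESeq2 1.42.0 among them), the pseudocount, the read minimum, the thresholds and the test.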

Additional observations from a re-analysis of the deposited data

How the results depend on the processing

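No paired analysis was possible because each group had 1 library, and leaving out replicates could not be done for the same reason. The number of members called, 0 in each comparison, changed with 2 of the alternatives. With genome-aligned totals it was 2 in IR against WI (miR-143-3p and miR-145a-3p) and 1 in IR against Sham (miR-145a-3p), and with the fold alone it was 1 in WI against Sham (miR-199b-5p). Of all microRNAs tested, genome-aligned totals called 14.1% of 789 in IR against WI and 8.14% of 774 in IR against Sham. With the identical miR-199 3p rows counted once, the members' share was 4.11% (Sham), 4.17% (WI) and 3.58% (IR). The member hairpins called for their arm share, 3 over the comparisons, stayed at 3 with at least 100 reads or with adjusted p under 0.01. These last settings and the other arms of the partner ratios were chosen after seeing the data. With miR-145a-5p, the change of the ratio of miR-143 to miR-145a turned to -0.089 in IR against Sham and -0.24 in IR against WI, and with miR-199a-5p the ratio of miR-199a to miR-214 was -0.29 in IR against WI and no longer passed p under 0.01.

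Of 243 log2 values recomputed with another scaling, pseudocount, read minimum, merged rows or partner arm, 217 kept their direction and call, 3 gained a call, 1 lost one and 22 changed sign, 2 of them with p under 0.01 (miR-199a-5p and the ratio of miR-143 to miR-145a, both in IR against WI). No member was called with the main settings, so only a partner ratio, judged by p under 0.01 alone, could lose a call. A member that kept its sign but stopped passing p under 0.01 is counted as kept. In WI against Sham, library totals gave -0.054 for miR-145a-3p, -0.078 for miR-199a-3p and -0.082 for miR-199b-3p. Totals without the 10 most abundant microRNAs gave -0.036, -0.060 and -0.063 for the same arms. DESeq2 size factors gave -0.022 for miR-199a-3p and -0.025 for miR-199b-3p, and a minimum of 10 reads gave -0.017 and -0.021. Genome-aligned totals gave 0.13 for miR-145a-5p and 0.037 for miR-199a-5p. In IR against Sham, miR-199a-5p became -0.014 (DESeq2), -0.015 (library totals), -0.052 (without the 10 most abundant) and -0.16 (genome-aligned). In IR against WI, miR-145a-5p became 0.019 with library totals and 0.00067 with a minimum of 10 reads, and genome-aligned totals gave -0.19 for miR-199a-5p and -0.27 for miR-214-5p. Each scaling moved the microRNAs of a comparison together. Relative to the median of the 449 microRNAs, miR-199a-3p in WI against Sham was -0.012 with TMM and -0.013 with library totals. On the same measure, miR-199a-5p in IR against WI was 0.16 with TMM and 0.16 with genome-aligned totals. Why the scalings differ was not tested. Depth limits miR-143-5p, miR-199b-5p and miR-214-5p most, with 11 to 48 reads a library.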

Other observations

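MiR-145b, whose name lies next to miR-145a in the count files and which the rule for the members leaves out, had 11 (Sham), 8 (WI) and 7 (IR) reads, or 2.78, 1.64 and 1.83 CPM.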
